A study of Mus musculus with 12 samples.

Results

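Glutamate uptake and recycling was followed through 6 genes, Slc1a2, Slc1a3, Slc1a1, Glul, Slc38a3 and Glud1, in RNA of astrocytes taken by laser capture from SOD1 G93A mice, a model of amyotrophic lateral sclerosis. Every probe set that the platform annotation assigns to one of these symbols was taken, which gave 21 of the 45101 probe sets on the array for 6 of its 19324 annotated genes. Of these, 14 were bright enough to be tested, against 26132 tested in all. The arrays were Affymetrix mouse expression GeneChips hybridized with RNA that had been linearly amplified over several rounds. The 4 groups held 3 male mice each, with 1 array per mouse and 12 arrays in all: SOD1 G93A transgenic mice at 90 days (the symptomatic stage) and at 120 days (the late stage), and non-transgenic (NTg) littermates at both ages. The transgene is a mutant human SOD1 gene with its own promoter, active in all tissues of the animal, on a line backcrossed to C57Bl/6 J Ola/Hsd that the NTg littermates share. Per the labels 1500 astrocytes were captured from lumbar spinal cord of each animal. The labels name toluidine blue as the stain and the study's methods name an ALDH1L1 antibody.

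Glutamate released at synapses is cleared from the extracellular space by sodium-coupled transporters in the plasma membrane. In the adult spinal cord most of this uptake is carried by astrocytes through Slc1a2 (GLT-1, also called EAAT2) and Slc1a3 (GLAST, EAAT1), whereas Slc1a1 (EAAC1, EAAT3) is mainly a transporter of neurons. Inside the astrocyte Glul, glutamine synthetase, joins ammonia to glutamate, and Slc38a3 (SNAT3) releases the glutamine, which neurons take up again. Glud1, the mitochondrial glutamate dehydrogenase, instead passes glutamate into the tricarboxylic acid cycle. Loss of the glial transporter EAAT2 is a long-known feature of amyotrophic lateral sclerosis tissue.

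Levels are given as deposited intensities, which are linear and were scaled by the authors to the same trimmed mean of 100 on every array. The intensities of different probe sets were not compared with each other, because each binds with its own efficiency. Fold changes are differences of log2(intensity + 7) after quantile normalization within each age, and they understate the change of dim probe sets. A probe set was called when its adjusted p in limma, with Benjamini-Hochberg adjustment over all 26132 probe sets, was under 0.05. Groups are said not to overlap when all 3 arrays of one lay beyond all 3 of the other on the normalized scale.

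Array medians were 24.9 to 30.4 at 90 days, 27.9 to 37.1 in NTg mice at 120 days and 38.8 to 55.2 in SOD1 G93A mice at 120 days. SOD1 G93A replicate 3 at 120 days stood apart, with the lowest mean correlation with the other arrays of its group (0.86, against 0.89 to 0.96 on the other arrays). Markers of the labelled cell type were present, as 15 of the 16 astrocyte markers listed had a probe set and between 13 and 15 of these were above the median of every array of a group. Neuronal markers were present as well, with 14 or 15 of 15 above the median of every array of a group, so the capture held RNA of several cell types. At 90 days the summed intensity of the neuron markers was 27865 to 33027 on the NTg arrays, against 21262 to 25226 on the SOD1 G93A arrays. At 120 days it was 22382 to 29259 against 10513 to 16527. Microglia markers ran the other way. The summed intensity of the 13 with a probe set was 2526 to 4909 in NTg mice at 90 days, against 7021 to 11263 in SOD1 G93A mice, and 1622 to 1797 against 9461 to 11436 at 120 days. Of these 13, 9 were above the median of every NTg array at 90 days and 6 at 120 days, against 11 and 10 in SOD1 G93A mice. On the NTg arrays at 120 days 7 were above the median of no array. Means at that age were 974 against 4123 for Csf1r and 340 against 3635 for C1qb, NTg first. Oligodendrocyte markers were present too, and all 11 with a probe set were above the median of every array. Their summed intensity at 90 days was 33670 to 57377 in NTg mice, against 38983 to 64895 in SOD1 G93A mice. At 120 days it was 27234 to 34619 against 41755 to 51419. The part of the oligodendrocyte markers in the results was not tested. In such samples fewer cells of a type and less RNA per cell cannot be told apart.

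The 2 transporters of glia were measured by 12 probe sets, of which 7 were tested. The brightest of Slc1a2, 1438194_at, had intensities at 90 days of 5416, 5096 and 7233 in NTg mice, against 7578, 5109 and 6039 in SOD1 G93A mice. At 120 days the values were 3299, 3158 and 2419 in NTg mice, against 3127, 4071 and 3048 in SOD1 G93A mice. The genotypes overlapped at both ages, while every array at 120 days lay below every array at 90 days.

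Slc1a2 1438194_at differed between genotypes by a log2 fold change of 0.05 (SE 0.24, 95% interval -0.47 to 0.58, n = 3 per group) at 90 days in the limma fit. At 120 days the difference was 0.08 (SE 0.24, interval -0.44 to 0.60). Both intervals lie inside a 2-fold change in either direction. The adjusted p in limma was 1.00 at 90 days and 0.87 at 120 days. The other 3 tested Slc1a2 probe sets were dimmer and gave log2 fold changes of -0.10 to 0.21 at 90 days and -0.46 to 0.16 at 120 days, with none called. The intervals of these dimmer probe sets reached past 2-fold at both ages. At 120 days 2 of them, 1451627_a_at and 1433094_at, read 11.9 and 5.4 on SOD1 G93A replicate 3, against 79.9 and 90.6, and 46.8 and 38.5, on the other 2 arrays of that group.

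For Slc1a3 the brightest probe set, 1443749_x_at, read 115, 153 and 280 on the NTg arrays at 90 days, against 151, 146 and 165 on the SOD1 G93A arrays. At 120 days it read 96.0, 81.2 and 55.4 against 158, 80.6 and 96.4. The groups overlapped at both ages, with a log2 fold change of -0.18 (SE 0.36, interval -0.96 to 0.59) at 90 days and 0.30 (SE 0.36, interval -0.47 to 1.07) at 120 days. The interval at 120 days reaches past a 2-fold increase. Among the other Slc1a3 probe sets, 1452031_at was higher in SOD1 G93A mice at 90 days without overlap, at 69.9, 104 and 81.2 against 70.0, 59.1 and 58.4. The deposited values of the groups touch here, and they separate after normalization. Its log2 fold change was 0.34 (SE 0.34, adjusted p in limma 1.00), and 5.74% of all probe sets tested were higher without overlap at that age. At 120 days the value of 1452031_at was -0.06. Probe set 1426340_at had 0.02 at 90 days and 0.29 at 120 days, so the sign differed between probe sets at both ages.

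Slc1a1, the neuronal transporter, was the one gene of the 6 with a called difference, lower in SOD1 G93A mice at 120 days, where 3.86% of all probe sets tested were called lower. Probe set 1448299_at read 185, 323 and 230 in NTg mice at 90 days, against 253, 179 and 115 in SOD1 G93A mice. At 120 days it read 296, 425 and 466 in NTg mice, against 183, 113 and 119 in SOD1 G93A mice. The groups overlapped at 90 days. At 120 days each SOD1 G93A array lay below each NTg array, and 18.5% of all probe sets tested were lower without overlap at that age.

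Slc1a1 1448299_at fell by 1.43 on the log2 scale at 120 days (SE 0.34, interval -2.15 to -0.70), which is a 2.69-fold lower level, with an adjusted p of 0.0240 in limma. The second probe set, 1425415_a_at, read 78.1, 114 and 65.3 in NTg mice at 120 days, against 27.1, 65.3 and 24.6 in SOD1 G93A mice. These groups did not overlap after normalization, but they share the deposited value of 65.3. The log2 fold change of 1425415_a_at was -1.34 (SE 0.38), and its adjusted p in limma, 0.05001, lay just over the threshold. On this probe set 2 of the 3 SOD1 G93A values were below the median of their own array, so its fold change rests on values near the dim end. The remaining Slc1a1 probe set, 1460386_a_at, was too dim to test.

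At 90 days the log2 fold change of Slc1a1 was -0.46 (SE 0.34, interval -1.18 to 0.27) for 1448299_at and -0.29 (SE 0.38) for 1425415_a_at, and neither was called (adjusted p 1.00 for both in limma). The difference between the ages, tested as an interaction in limma, was -0.97 (SE 0.48, interval -1.99 to 0.05, adjusted p 0.56) for 1448299_at and -1.05 (SE 0.54, adjusted p 0.57) for 1425415_a_at. The genotype difference at 120 days is therefore not shown to differ from that at 90 days. The call at 120 days depended on single arrays: the adjusted p in limma was 0.0537 without SOD1 G93A replicate 2, 0.0598 without SOD1 G93A replicate 3, 0.103 without NTg replicate 2 and 0.0981 without NTg replicate 3. The fold change itself was -1.66 to -1.28 over the 12 fits that left out 1 array.

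Most neuron markers moved the same way as Slc1a1 at 120 days, and the microglia markers the opposite way. The part of the microglia markers in the result was not tested. The neuron score, the mean normalized log2 value of the 15 neuron markers, was 9.33 to 9.74 in NTg mice at 120 days, against 8.82 to 8.96 in SOD1 G93A mice. Of the 15 neuron markers, 14 had a negative log2 fold change at that age, and values ran from -1.68 (Nefm) to 1.43 (Gap43). Of the 15, 5 were called lower and 9 were not called, beside 4.46% of all genes lower. Gap43 was the 1 called higher, beside 4.11% of all genes higher. With the neuron score as a covariate, Slc1a1 1448299_at had a log2 fold change of -0.19 at 120 days (adjusted p 1.00 in limma), and 0% of all probe sets were called in that fit. The score separates the genotypes at 120 days, so the part of neuronal content and the part of genotype in the lower Slc1a1 value cannot be told apart with these arrays.

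**Figure D1:**
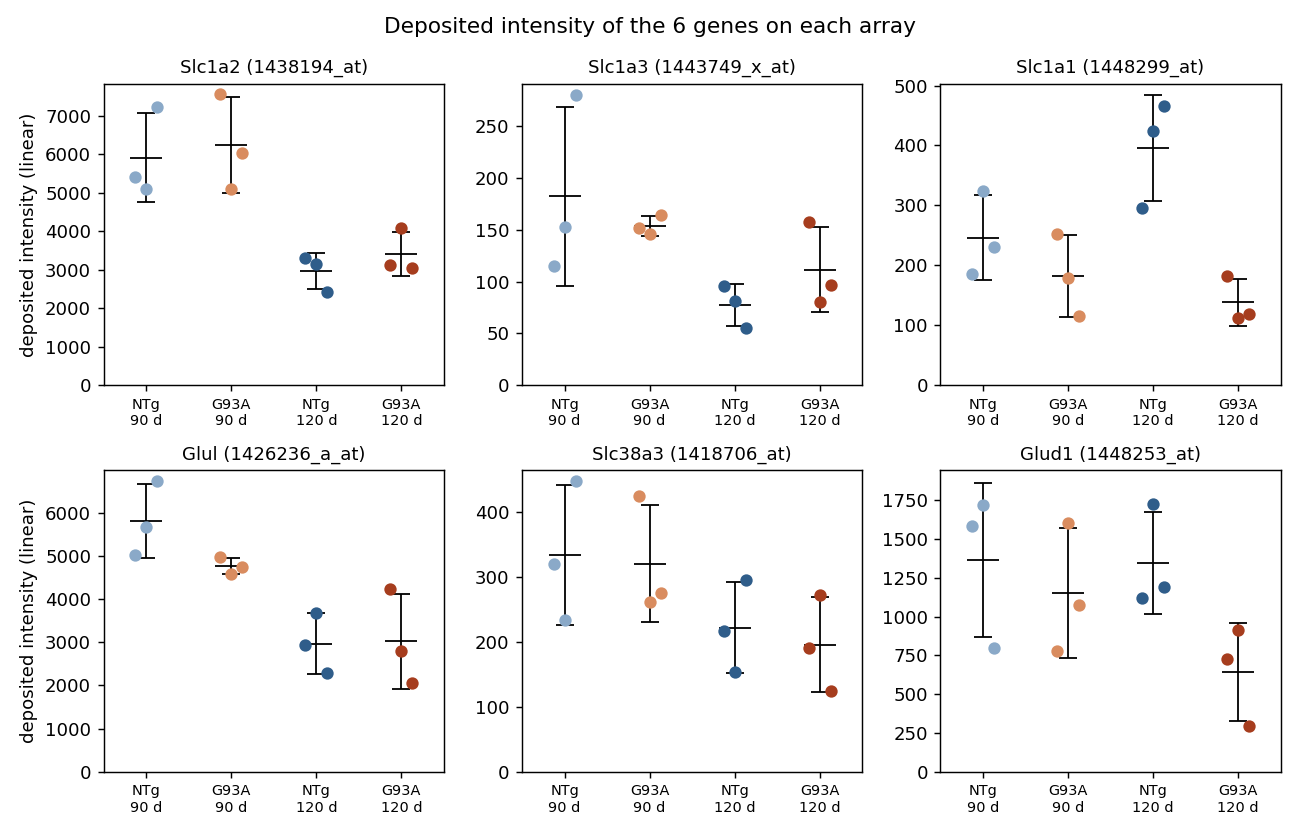
Deposited linear intensity (vertical axes, starting at 0) of the brightest tested probe set of each gene in the 4 groups. Points are single arrays, 3 per group, and the horizontal bar and whiskers are the mean and SD; for Slc1a1 the SOD1 G93A arrays at 120 days (113 to 183) lie below the NTg arrays (296 to 466), while for Slc1a2 and Glul no genotype difference was called and the arrays at 120 days lie below those at 90 days.

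Glutamine synthesis and release showed no called difference. At 90 days Glul 1426236_a_at read 5027, 5658 and 6740 in NTg mice, against 4972, 4585 and 4738 in SOD1 G93A mice. At 120 days it read 2939, 3679 and 2279 in NTg mice, against 4222, 2799 and 2059 in SOD1 G93A mice. The SOD1 G93A values were below all NTg values at 90 days and spread across them at 120 days.

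The log2 fold change of Glul 1426236_a_at was -0.31 (SE 0.27, interval -0.90 to 0.28, adjusted p 1.00 in limma) at 90 days, and 5.56% of all probe sets tested were lower without overlap at that age. At 120 days it was -0.07 (SE 0.27, interval -0.67 to 0.52). As for the brightest probe set of Slc1a2, both intervals lie within 2-fold. The second Glul probe set, 1426235_a_at, gave -0.06 (interval -0.72 to 0.61) at 90 days and -0.10 (interval -0.76 to 0.57) at 120 days. On 1426235_a_at SOD1 G93A replicate 1 stood above the rest of its group at 120 days, at 356 against 149 and 149, and replicate 1 was also the highest on 1426236_a_at.

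Slc38a3, the glutamine exporter, was tested by 1 probe set, 1418706_at. At 90 days it read 321, 235 and 449 in NTg mice, against 425, 262 and 276 in SOD1 G93A mice. At 120 days it read 218, 154 and 295 in NTg mice, against 191, 272 and 125 in SOD1 G93A mice. The genotypes overlapped at both ages, with a log2 fold change of -0.06 (SE 0.36, interval -0.84 to 0.73) at 90 days and -0.18 (SE 0.36, interval -0.97 to 0.60) at 120 days.

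Glud1, the mitochondrial enzyme, was lower in SOD1 G93A mice at 120 days on both of its probe sets, but short of the threshold. Probe set 1448253_at read 1120, 1726 and 1193 in NTg mice at that age, against 726, 911 and 297 in SOD1 G93A mice. Probe set 1416209_at read 419, 520 and 581 in NTg mice, against 297, 336 and 153 in SOD1 G93A mice. On both, every SOD1 G93A array lay below every NTg array, and SOD1 G93A replicate 3, the array that stood apart, was the lowest. Of all probe sets tested, 18.5% were lower without overlap at that age.

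The log2 fold change at 120 days was -1.07 (SE 0.42, interval -1.98 to -0.16, adjusted p 0.13 in limma) for Glud1 1448253_at. For 1416209_at it was -0.89 (SE 0.33, interval -1.60 to -0.17, adjusted p 0.12). Without SOD1 G93A replicate 3 the values shrank to -0.64 (adjusted p 0.39) and -0.55 (adjusted p 0.33). At 90 days Glud1 read 1582, 1721 and 800 in NTg mice on 1448253_at, against 780, 1603 and 1077 in SOD1 G93A mice. The fold changes there were -0.18 (interval -1.09 to 0.73) for 1448253_at and -0.25 (interval -0.96 to 0.47) for 1416209_at, with overlapping groups. On both probe sets the lowest arrays at 90 days were NTg replicate 3 and SOD1 G93A replicate 1. Their log2 ratios of 3′ to 5′ actin control probe sets were 5.89 and 5.53, against 3.89 to 4.80 on the others of that age. The part of RNA quality in these values was not tested. The interaction in limma was -0.89 (SE 0.60, adjusted p 0.65) for 1448253_at and -0.64 (SE 0.47, adjusted p 0.69) for 1416209_at. As for Slc1a1, the neuron score was lower on the same arrays, and with that score as a covariate the value of 1448253_at at 120 days was 0.17. Here too the score separates the genotypes, so neuronal content and genotype cannot be told apart.

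**Figure D2:**
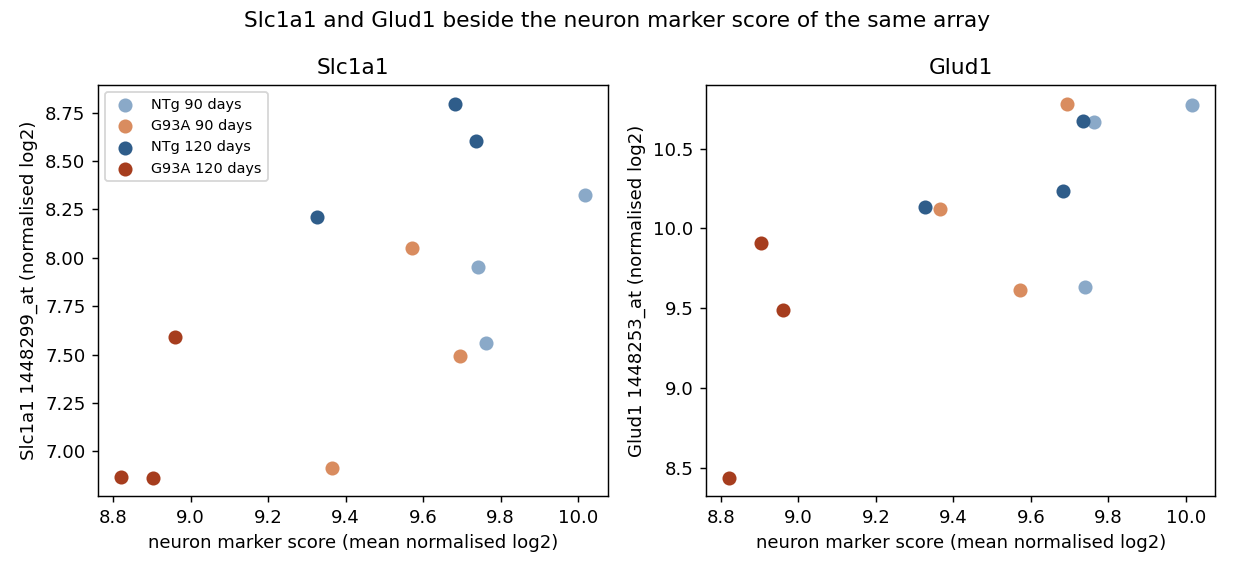
Normalized log2 value of Slc1a1 1448299_at (left) and Glud1 1448253_at (right) against the neuron marker score of the same array, 3 arrays per group. The SOD1 G93A arrays at 120 days have scores of 8.82 to 8.96, below every other array, and the ages were normalized separately, so only genotypes within an age are on one scale.

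Counted together, 0 of the 14 probe sets tested were called at 90 days, where 0.138% of all probe sets tested were called (0.115% higher and 0.023% lower). At 120 days 1 of 14 was called, lower, where 7.45% of all were called (3.6% higher and 3.86% lower). An unadjusted p under 0.05 in limma was given to 0 of 14 at 90 days (5.61% of all) and to 4 of 14 at 120 days (25.8% of all). These 4, both probe sets of Slc1a1 and both of Glud1, were also those with groups that did not overlap at 120 days, all lower, where 18.5% of all were lower and 14% higher without overlap.

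By the study's own criterion of a 2-fold change with unadjusted p under 0.05, 3 of 14 were lower and 0 higher at 120 days, where 7.52% of all were lower and 5.18% higher. At 90 days 0 of 14 met it in either direction, where 0.769% of all were lower and 0.999% higher. For the difference between the ages 0 of 14 and 0% of all probe sets were called in limma, and an unadjusted p under 0.05 was given to 0 of 14 and to 9.24% of all. The median log2 fold change of the 14 was -0.08 at 90 days and -0.14 at 120 days, beside medians of -0.002 and -0.07 over all probe sets tested. Of the 14 fold changes, 9 at 90 days and 10 at 120 days were negative, against 50.3% and 54.5% of all.

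**Figure D3:**
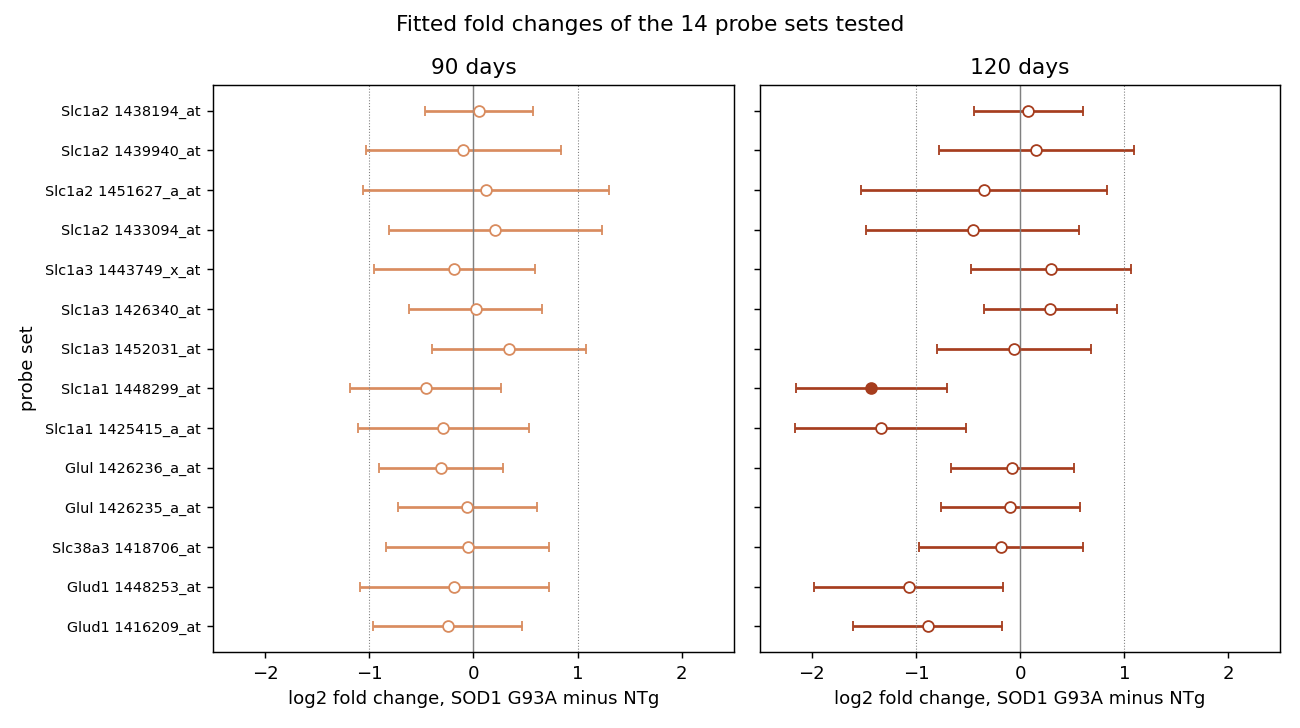
Log2 fold change between the genotypes (horizontal axes, SOD1 G93A minus NTg) for the 14 probe sets tested, at 90 days (left) and 120 days (right). Points are limma estimates with 95% intervals, a filled point marks the 1 called probe set (Slc1a1 1448299_at at 120 days, -1.43), and dotted lines mark a 2-fold change.

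The 7 probe sets that were not tested read between 0.6 and 93.8, and 2 of their 84 values were above the median of the array. They were 2 of Slc1a2, 3 of Slc1a3, 1 of Slc1a1 and 1 of Slc38a3. One of those of Slc1a2, 1433095_at, is assigned to Gm13872 as well. They carry no measurement that could be set beside the others.

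Across ages the values are a description, since each age was its own set of arrays, and age and array set cannot be told apart. In NTg mice the mean deposited intensity of Slc1a2 1438194_at was 2.00-fold higher at 90 than at 120 days, and in SOD1 G93A mice 1.83-fold. For Glul 1426236_a_at the ratios were 1.96 and 1.57. In both genotypes all arrays at 120 days were below all arrays at 90 days on these 2 probe sets, by deposited intensity. A sign of RNA quality was shifted with age for Gapdh, with overlap, while for actin the range at 120 days lay inside that at 90 days. The log2 ratio of 3′ to 5′ control probe sets of Gapdh was 3.51 to 4.64 at 90 days and 4.45 to 5.16 at 120 days, and that of actin 3.89 to 5.89 and 5.04 to 5.71. The part of RNA quality in the age differences was not tested.

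Slc1a3 1443749_x_at had ratios of 2.35 in NTg, without overlap, and 1.38 in SOD1 G93A mice, with overlap. Slc1a1 1448299_at ran the other way in NTg mice, where the mean was 1.61-fold higher at 120 days with overlap, while in SOD1 G93A mice it was 1.32-fold lower at 120 days, again with overlap. Of the 14 probe sets tested, 6 were lower and 1 higher at 120 days without overlap in NTg mice, beside 13.6% and 18.6% of all probe sets tested. In SOD1 G93A mice 5 were lower and 0 higher, beside 11.5% and 17.3%.

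The summed intensity of the astrocyte markers was lower at 120 days too, though not that of every marker. The sum was 24446 to 26819 at 90 days and 14785 to 18507 at 120 days in NTg mice. On the SOD1 G93A arrays it was 29878 to 32338 and 17582 to 27638. In SOD1 G93A mice the mean intensities of Aqp4 (2116.5 and 2199.3) and Sox9 (81.0 and 139.9) were higher at 120 than at 90 days. In NTg mice that of Fgfr3 was (664 and 678). The other markers had lower means at 120 days. The part of the astrocyte markers in the lower values of the glial transporters and of Glul was not tested. Between genotypes the astrocyte score was higher in SOD1 G93A mice, by 0.27 at 90 days and 0.41 at 120 days on the log2 scale, but its groups overlapped at both ages (8.70 to 8.99 in NTg mice at 120 days, against 8.62 to 9.77). At 120 days much of this difference came from Gfap, the intermediate filament of astrocytes, with log2 fold changes of 1.66 at 90 days and 4.79 at 120 days. Mean Gfap intensity at 90 and 120 days was 2199 and 148 in NTg mice, against 5599 and 4203 in SOD1 G93A mice. Of the 15 astrocyte markers tested, 3 were called higher at 120 days, Gfap, Aldh1l1 (1.22) and Sox9 (1.53). Cldn10 (-1.70) was the 1 called lower, beside 4.11% of all genes higher and 4.46% lower. With Gfap left out, an alternative chosen after seeing the data, the score differed by 0.17 and 0.10. Relative to the full score on the same array, Slc1a2 1438194_at had log2 fold changes of -0.21 at 90 days and -0.33 at 120 days, neither called (adjusted p 0.95 and 0.54 in limma). On the same scale both Slc1a1 and both Glud1 probe sets were called lower at 120 days, with values of -1.30 to -1.84, beside a median of -0.48 over all probe sets on that scale. The same score was subtracted from every probe set of an array. The share of all probe sets called on that scale is not given here, so the calls are not a result about these 4 probe sets. Without Gfap in the score 1 of these 4 was called, Slc1a1 1425415_a_at (-1.43, adjusted p 0.0458 in limma), while Slc1a1 1448299_at was -1.52 (adjusted p 0.0663) and the Glud1 probe sets were -1.17 and -0.98 (adjusted p 0.0793 and 0.0953).

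Ordered by mean deposited intensity, Slc1a2 1438194_at ran from SOD1 G93A at 90 days (6242 ± 1247, SD, n = 3) and NTg at 90 days (5915 ± 1152) to SOD1 G93A at 120 days (3416 ± 569) and NTg at 120 days (2959 ± 473). Neighbors of one age differed by less than their spread. Glul 1426236_a_at ran from NTg at 90 days (5809 ± 866) and SOD1 G93A at 90 days (4765 ± 195) to SOD1 G93A at 120 days (3027 ± 1100) and NTg at 120 days (2966 ± 700), where the last pair differed by less than their spread. Slc1a1 1448299_at ran from NTg at 120 days (395 ± 88.8) through NTg at 90 days (246 ± 70.8) and SOD1 G93A at 90 days (182 ± 68.8) to SOD1 G93A at 120 days (138 ± 38.9). The deposited values of each pair of neighbors in this order overlapped, and no other pair did. For Slc1a3, Slc38a3 and Glud1 every pair of neighbors in the order of the group means overlapped.

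The promoter sequences are shown for the genes that lie at the ends of the comparison: Slc1a1 and Glud1, lower at 120 days on both of their probe sets, and Slc1a2 and Glul, whose brightest probe sets had intervals within 2-fold at both ages. Each line is the 250 bases upstream of the start in RefSeq (GRCm38.p6), written 5′ to 3′ along the gene, at chr19:28834885-28835134 (plus strand), chr14:34310477-34310726 (plus strand), chr2:102706188-102706437 (plus strand) and chr1:153899679-153899928 (plus strand). RefSeq's table held 5 of the 6 genes with 1 start each. Capitals mark matches on either strand to any of 5 motifs. They are GGGCGG, the core of a GC box that binds Sp1-type factors, CCAAT, the core of the box named after it, and TATAAA, the usual form of a TATA box. The others are TGACG, which makes up one side of a cAMP response element, and CACGTG, the palindromic E-box.
Slc1a1: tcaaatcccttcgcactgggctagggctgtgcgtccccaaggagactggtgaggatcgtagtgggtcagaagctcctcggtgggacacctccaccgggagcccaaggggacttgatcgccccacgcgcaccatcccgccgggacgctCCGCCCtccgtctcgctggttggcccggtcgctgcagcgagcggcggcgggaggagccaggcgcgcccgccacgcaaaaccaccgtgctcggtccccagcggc
Glud1: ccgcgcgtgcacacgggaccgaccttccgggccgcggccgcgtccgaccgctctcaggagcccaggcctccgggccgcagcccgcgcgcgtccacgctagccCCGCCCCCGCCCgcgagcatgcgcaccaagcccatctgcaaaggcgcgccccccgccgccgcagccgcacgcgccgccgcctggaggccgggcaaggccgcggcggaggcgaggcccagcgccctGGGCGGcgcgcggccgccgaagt
Slc1a2: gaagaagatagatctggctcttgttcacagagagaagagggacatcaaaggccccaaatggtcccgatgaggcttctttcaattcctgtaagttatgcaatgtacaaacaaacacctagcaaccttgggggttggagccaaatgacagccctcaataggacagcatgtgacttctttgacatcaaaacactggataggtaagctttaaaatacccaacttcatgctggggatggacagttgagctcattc
Glul: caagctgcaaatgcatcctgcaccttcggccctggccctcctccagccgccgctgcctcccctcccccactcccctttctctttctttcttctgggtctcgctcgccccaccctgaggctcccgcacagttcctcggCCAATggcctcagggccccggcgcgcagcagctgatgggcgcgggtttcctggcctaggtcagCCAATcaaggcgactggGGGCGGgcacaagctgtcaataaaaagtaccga

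The windows of Slc1a1 and Glud1 were rich in G and C, at 70.4% and 82% of bases, with 27 and 46 CpG dinucleotides. That of Glul held 64.8% with 15 CpG and that of Slc1a2 44.8% with 1, beside a median of 52.4% over 32851 windows of the same length. A GC box occurred 3 times in Glud1 and once each in Slc1a1 and Glul, and 32.7% of all windows held at least 1. The CCAAT box occurred 2 times in Glul (33.8% of all windows). No TATA box, half-site or E-box was matched in these 4 windows (12.4%, 17.8% and 6.02% of all windows), and none of the 5 motifs in that of Slc1a2. The matches are letters in a window and were not set against any binding data.

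Agreement between probe sets of one gene is a description over the 12 arrays, after subtraction of the mean of each age. The single pair of tested probe sets had Pearson's r = 0.92 for Glud1, 0.72 for Slc1a1 and 0.58 for Glul. For Slc1a2 the 6 pairs of tested probe sets had r of 0.07 to 0.81 and for Slc1a3 the 3 pairs 0.06 to 0.64. The ranges of these 2 genes overlap the values of the single pairs, and the Slc1a2 pair with 0.81 was 1451627_a_at with 1433094_at, the dim probe sets that were low on SOD1 G93A replicate 3 at 120 days. For Slc1a3 the brightest probe set, 1443749_x_at, had 0.36 with 1426340_at and 0.06 with 1452031_at, while 1426340_at and 1452031_at had 0.64.

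Between genes, r over the same 12 arrays was highest for Glul with Glud1 (0.59) and Slc1a1 with Glud1 (0.51), and lowest for Slc1a2 with Slc1a1 (-0.44). The points share arrays and groups, and no test was made. Genes with the profile most like each member, by the same r among 12458 genes, were Slc25a1 (0.97), Ica1 (0.95) and Flt3 (0.95) for Slc1a1. For Glud1 they were Spata2 (0.97), Zdhhc24 (0.97) and Usp22 (0.97), and for Glul Hdc (0.93), Hif1an (0.88) and Bet1l (0.88). For Slc1a2 they were Pi4kb (0.89), Fam107a (0.88) and Pml (0.82), and for Slc1a3 Vangl1 (0.84), Pa2g4 (0.83) and Mndal (0.82). For Slc38a3 they were Tfip11 (0.92), Fcsk (0.92) and the probe set assigned to Mir425 (0.91).

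The wider pathway was covered by 45 other genes, of which 35 had a tested probe set, taking the brightest of each gene. At 90 days 0 of 35 were called, beside 0.185% of all genes higher and 0.0401% lower. At 120 days 2 rose and 3 fell, beside 4.11% of all genes higher and 4.46% lower. Their median log2 fold change at 120 days was -0.44, beside -0.08 over all genes, and 22 of 35 were negative.

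The 2 that rose at 120 days were Phgdh, the first enzyme of serine synthesis, and Prodh, proline dehydrogenase. Phgdh read 329 to 552 against 871 to 947, NTg first (log2 fold change 1.18, SE 0.31, adjusted p 0.0366 in limma). Prodh read 94.3 to 110 against 183 to 270 (1.11, SE 0.31, adjusted p 0.0490). Neither pair of groups overlapped, and 14% of all probe sets tested were higher without overlap at that age. Both calls were near the threshold, and Phgdh lost its call in 11 and Prodh in 15 of 28 alternatives. With median centring the values were 0.64 (adjusted p 0.15 in limma) and 0.69 (adjusted p 0.13). Leaving out NTg replicate 2 at 120 days gave adjusted p-values of 0.16 and 0.17. The call of Phgdh was also lost without NTg replicate 3, SOD1 G93A replicate 2 or SOD1 G93A replicate 3 at 120 days, or NTg replicate 1 at 90 days. That of Prodh was lost in 8 of the 12 fits without 1 array, and held in those that dropped SOD1 G93A replicate 1 at 120 days or, at 90 days, NTg replicate 3, SOD1 G93A replicate 2 or SOD1 G93A replicate 3. With the neuron score as a covariate Phgdh was 0.35 and Prodh 0.05. The score separates the genotypes at 120 days, so that fit cannot tell neuronal content from genotype.

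Those that fell were 2 transaminases and a mitochondrial carrier. Got2, the mitochondrial aspartate aminotransferase, read 1426 to 2681 in NTg mice, against 754 to 1156 in SOD1 G93A mice (log2 fold change -0.94, SE 0.27, adjusted p 0.0473 in limma). Bcat1, the cytosolic branched-chain aminotransferase, read 768 to 1141 against 270 to 511 (-1.06, SE 0.29, adjusted p 0.0435). Got2 lost its call in 18 of 28 alternatives and Bcat1 in 13, and without NTg replicate 2 at 120 days the adjusted p in limma was 0.20 and 0.16. Of the 12 fits without 1 array, Got2 was called in those without NTg replicate 3 at 90 days and without NTg replicate 1 at 120 days. Bcat1 was lost in 6, those without any 1 NTg array at 120 days, SOD1 G93A replicate 3 at 120 days, SOD1 G93A replicate 2 at 90 days or NTg replicate 1 at 90 days. The neuron score was lower on the same arrays, and with that score as a covariate Got2 was -0.04 and Bcat1 0.06. That fit cannot tell neuronal content from genotype, because the score separates the genotypes at 120 days. Slc25a13 (citrin), an aspartate and glutamate carrier of mitochondria, read 40.8 to 55.6 against 3.0 to 6.2 (-2.53, SE 0.36, adjusted p 0.00162). All 3 SOD1 G93A values of Slc25a13 were below the median of their array, so its low level is near the floor of the measurement, and its log2 fold change was -3.61 with an offset of 1 and -1.24 with an offset of 34.

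By group at 120 days, all 4 mitochondrial glutamate and aspartate carriers were negative (-2.53 to -0.44, 1 called), and of the 12 transaminases and genes of glutamate, proline and ornithine metabolism 2 rose, 2 fell and 8 were not called. Of the 6 glutamine carriers, 0 were called, with values of -0.64 to 0.26. The 5 genes of the GABA branch had values of -1.21 to 0.37 with 0 called, and the vesicular glutamate transporter of neurons, Slc17a6, had -1.96 (SE 0.65, adjusted p 0.08 in limma). The 3 further plasma membrane carriers had 0.19 to 0.57, the 2 genes of the glutathione branch -0.98 to -0.21 and the 2 transporter binding partners -0.01 to 0.36, with 0 called in each.

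At 90 days the smallest p-values were those of Aldh4a1 (log2 fold change 1.29, SE 0.40, adjusted p 0.49 in limma), Prodh (0.73, SE 0.31, adjusted p 0.84), Phgdh (0.61, SE 0.31, adjusted p 0.93) and Gclm (-0.74, SE 0.39, adjusted p 0.95). Aldh4a1, the next enzyme of proline breakdown after Prodh, read at most 10.7 in NTg mice, against 25.7 to 31.5 in SOD1 G93A mice, near or below the array medians. Of the listed genes, 10 in all had no tested probe set.

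**Figure D4:**
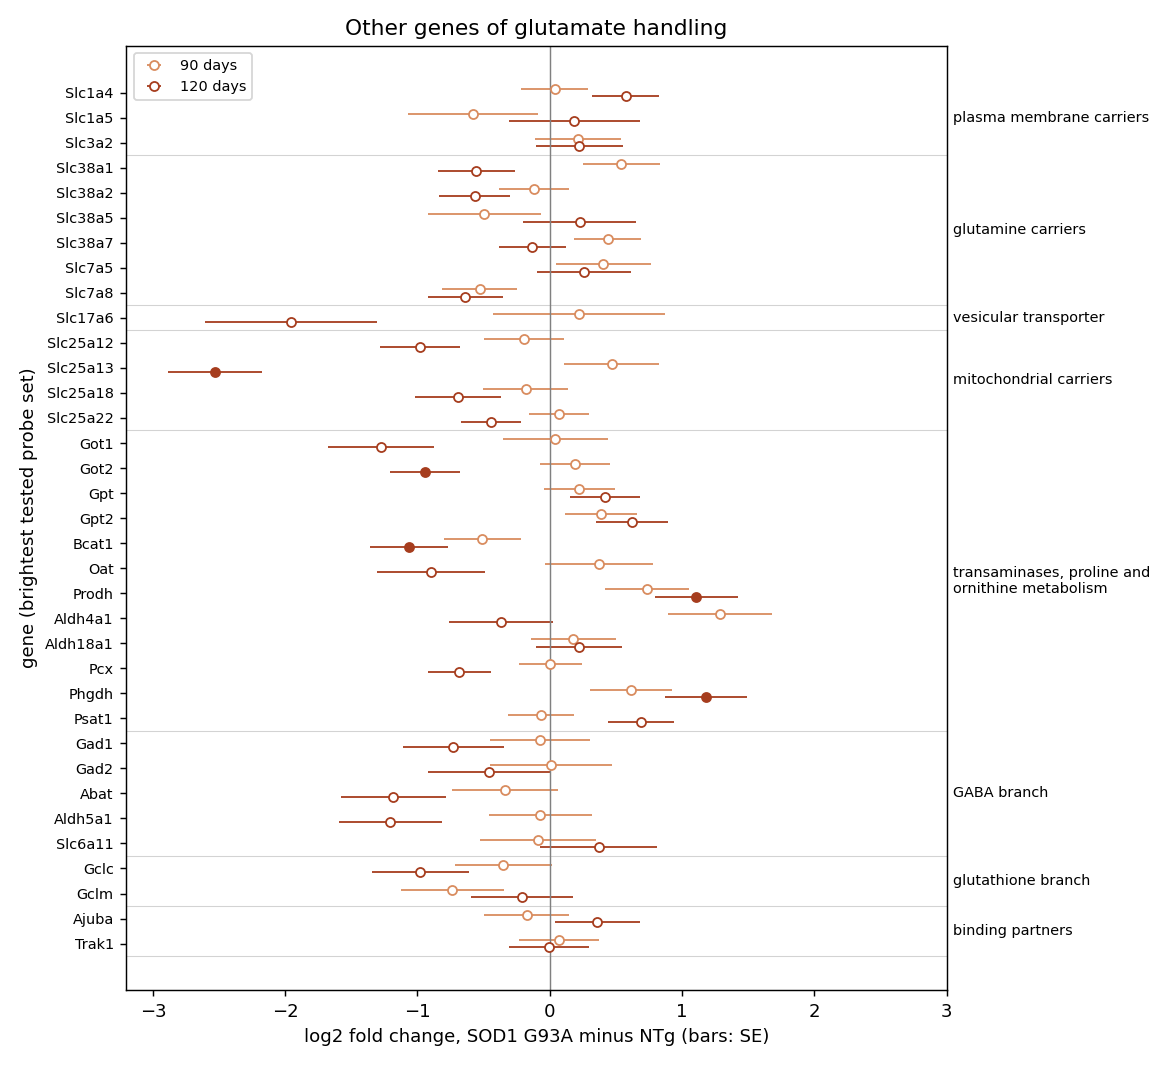
Log2 fold change between the genotypes (SOD1 G93A minus NTg) at 90 and 120 days for the 35 other genes of glutamate handling, grouped by role, with SE bars from limma. Filled points are the called genes, which are Phgdh and Prodh on the right and Slc25a13, Got2 and Bcat1 on the left, all at 120 days.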

How the data were processed

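The deposited values are linear signal intensities made by the authors with MAS5, per the labels with no version given, and brought on every array to a common trimmed mean of 100, with 2% trimmed at each end. The study's own calls used PLIER, which was not analysed here. Groups came from the labels. The 6 genes and all lists were chosen with earlier results of these data known. Intensities were taken as log2(intensity + 7), where 7 is the rounded 20th percentile of all values, and quantile-normalized within each age. After removal of 64 control probe sets, probe sets whose intensity exceeded the array median on 3 or more of the 12 arrays were kept, 26132 in all. limma 3.58.1 (R 4.3.3) fitted 4 group means (8 residual degrees of freedom) with empirical Bayes moderation and Benjamini-Hochberg adjustment (threshold 0.05), for SOD1 G93A minus NTg at each age and the difference of the ages. The steps were tested on simulated data. Of the probe sets, 34958 had 1 symbol, 932 several and 9211 none. A gene is given by its brightest tested probe set of 1 symbol. Other genes of the pathway were named if called or among the 4 smallest p-values of an age. Likeness was Pearson's r over 12 arrays after subtraction of age means. Promoter windows are RefSeq's (GRCm38.p6). Figures were drawn with matplotlib 3.10.9 (python 3.11.15). Alternatives were other normalizations, offsets, filters and variance models, each age fitted alone, array weights, a replicate block, gene means, values relative to astrocyte markers (also without Gfap, added after seeing the data), a neuron score covariate and leaving out each array. With 3 mice per group, precision is limited by the number of arrays.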

Additional observations from a re-analysis of the deposited data

How the results depend on the processing

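At 90 days and for the difference between ages, 0 probe sets of the 6 genes were called under all alternatives run. At 120 days 1 was called (7.45% of all probe sets tested). The count was 2 with quantile normalization over all 12 arrays, with the larger offset of 34 and with a trended and robust prior, 4 with median centring and relative to the astrocyte markers, and 0 with the unmoderated test and with the neuron score as a covariate. With Gfap left out of the astrocyte markers, chosen after seeing the data, it was 1, a different probe set (Slc1a1 1425415_a_at). It was 0 to 1 over the fits without 1 array, and 0 when SOD1 G93A replicate 3 at 120 days was left out, or NTg replicate 2, or NTg replicate 3. The share of all probe sets tested that was called at 120 days moved as well. That share was 1.84% to 9.45% without 1 array and 9.29% with the values as deposited. The shares of the fits with 2 or 4 calls are not given here, so those counts are not a result about the 6 genes. The replicate block gave 2 calls at 120 days. The labels give the numbers without naming a pairing. Deviations of same-numbered arrays correlated at -0.28 to 0.28, and those of unlike numbers at -0.36 to 0.46. With 3 arrays per group these values cannot settle whether the numbers pair the mice. The second Slc1a1 probe set, 1425415_a_at, gained a call in 8 of 26 alternatives, among them the replicate block (adjusted p 0.0214 in limma), and Slc1a1 1448299_at lost it in 7 of 28. The cause of these changes was not tested. At 120 days the median log2 fold change of all probe sets was -0.07, and it was -0.33 with median centring, -0.48 relative to the astrocyte markers and -0.16 with Gfap left out of them. Relative to the first 3 of these medians Slc1a1 1448299_at was -1.36, -1.55 and -1.36, and Glud1 1416209_at was -0.82, -1.06 and -0.82.

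Signs turned in places, mostly of uncalled values near 0, but also of Glud1 1448253_at (-1.07 in the report) and of the called gene Bcat1 (-1.06). At 120 days Slc1a2 was -0.18 with median centring, -0.14 as a gene mean, -0.33 relative to astrocyte markers (-0.017 with Gfap left out) and -0.21 with the neuron covariate, and -0.12 to 0.19 without 1 array. Slc1a3 was -0.11 relative to astrocyte markers, -0.049 with the neuron covariate and -0.021 to 0.49 without 1 array. Glul was 0.17 with array weights, 0.33 with the neuron covariate and -0.29 to 0.14 without 1 array. Slc38a3 was -0.47 to 0.14 without 1 array, and with the neuron covariate Glud1 1448253_at was 0.17 and Bcat1 0.057. At 90 days Slc1a2 was -0.21 relative to astrocyte markers (-0.11 with Gfap left out) and -0.069 with the neuron covariate. Slc1a3 was 0.19 with array weights, 0.060 as a gene mean and -0.47 to 0.18 without 1 array. With the neuron covariate Slc1a1 was 0.078 and 0.13 on its 2 probe sets, and Glud1 0.35 and 0.038. The neuron score separates the genotypes at both ages, so fits with this covariate cannot tell neuronal content from genotype. Without 1 array Glud1 1448253_at was -0.53 to 0.092 and Slc38a3 -0.29 to 0.19. Of the called pathway genes at 120 days, Slc25a13 lost its call in 1 of 27 alternatives, Phgdh in 11, Bcat1 in 13, Prodh in 15 and Got2 in 18 of 28. Dim signals, near or below the array median, carry little precision.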
